A study of Rattus norvegicus with 6 samples.

Results

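The actin genes of INS-1 cells were examined beside a human ACTA2 sequence that the cells were made to express. INS-1 is an insulin-secreting line derived from a rat insulinoma. Rows were taken from the deposited table where the gene entry was the human ACTA2 sequence, or where the symbol was Acta1, Acta2, Actb, Actc1, Actg1 or Actg2, and rows without a gene entry were left out. Of these 7 symbols 5 had a row, which gave 8 transcript rows and 5 genes among 21553 named genes. No row carried the symbols Actc1 or Actg2, and these genes were not analysed here.

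Per the labels, INS-MOCK cells have the genotype wild type and INS-SMA cells the genotype SMA overexpression, with alpha smooth muscle actin (α-SMA, the ACTA2 protein) delivered by lentivirus. Each group had 3 libraries, described as biological replicates, from cells at passage 7 to 15 grown in one medium. The promoter that drives the transgene, whether the INS-SMA cells are 1 clone or a pool, and whether INS-MOCK cells received a virus are not stated in the labels. The libraries held 24719503 to 39608609 counts, and INS-SMA replicate 1 was the shallowest.

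Mammals have muscle actins and cytoplasmic actins, which differ in a small number of amino acids. Acta1 and Actc1 are the actins of skeletal and cardiac muscle, Acta2 and Actg2 those of smooth muscle, and Actb and Actg1 the cytoplasmic actins found in nearly every cell, where they form the cortex that lies under the membrane. Actin shifts between monomers and filaments. Free monomers bind the cofactors MRTF-A and MRTF-B and hold them away from the transcription factor SRF, which binds CArG boxes in the promoters of actin genes and of many genes for actin-binding proteins.

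Promoter stretches of 60 bases are shown for 3 rat actin genes, because these are the sequences through which SRF is known to act on the family. They come from RefSeq (GRCr8), which has 250 bases before and 50 after a gene's start, and whose coordinates differ from those of the count table. Of the 6 rat actin symbols 5 had an entry. Actb had none, so its promoter was not searched for boxes. A CArG box is CC, a core of A and T bases, and GG. It reads as a CArG box on both strands. Capitals mark the box, and each stretch is on the minus strand, written 5′ to 3′.
Acta2, chr1:241172603-241172662: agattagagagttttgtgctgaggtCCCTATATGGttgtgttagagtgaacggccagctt
Acta2, chr1:241172553-241172612: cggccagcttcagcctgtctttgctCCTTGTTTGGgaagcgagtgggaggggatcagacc
Acta1, chr19:68784254-68784313: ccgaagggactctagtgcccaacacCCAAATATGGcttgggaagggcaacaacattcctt
Actg1, chr10:106121007-106121066: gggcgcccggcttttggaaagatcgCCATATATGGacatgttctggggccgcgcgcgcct
Both boxes of Acta2 hold 1 G or C in the core, and they began 134 and 84 bases before the gene's start. The shown box of Acta1 and the only box found for Actg1 have a core of only A and T, and began 94 and 90 bases before the start. Acta1 also had a pair of boxes with 1 G or C in the core, which began 222 and 171 bases before the start and are not shown. Of the genes with no row in the table, Actc1 had boxes of both kinds and none was found for Actg2 in this window. A box with a core of only A and T was found in 1.64% of 33469 promoters of the same length, and one with at most 1 G or C in its core in 9.42%. These are letter matches, and the files hold no measure of SRF binding.

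The human ACTA2 row, a sequence of 1152 bases, was read first because it checks the labels. Values are normalised counts, as CPM, counts scaled to one library size by TMM factors. They are not corrected for length, so levels are compared between libraries and not between genes. ACTA2 was at 5.58, 4.62 and 7.14 CPM in INS-MOCK replicates 1 to 3 and at 56545.5, 52369 and 44302 CPM in INS-SMA replicates 1 to 3. The INS-SMA libraries lay far above all INS-MOCK libraries, with a log2 fold change of 13.11 (standard error, SE, 0.28). The quasi-likelihood test of edgeR, used for all genes below, gave it an adjusted p of 4.39e-06. The low level in INS-MOCK rested on 135, 103 and 167 counts, which is 0.322, 0.271 and 0.423 counts per 100 counts of Actb in the same library. The source of these counts was not tested. Reads of near-identical actin coding sequences can be hard to tell apart, so small counts of 1 actin beside a very abundant one are uncertain throughout.

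**Figure D1:**
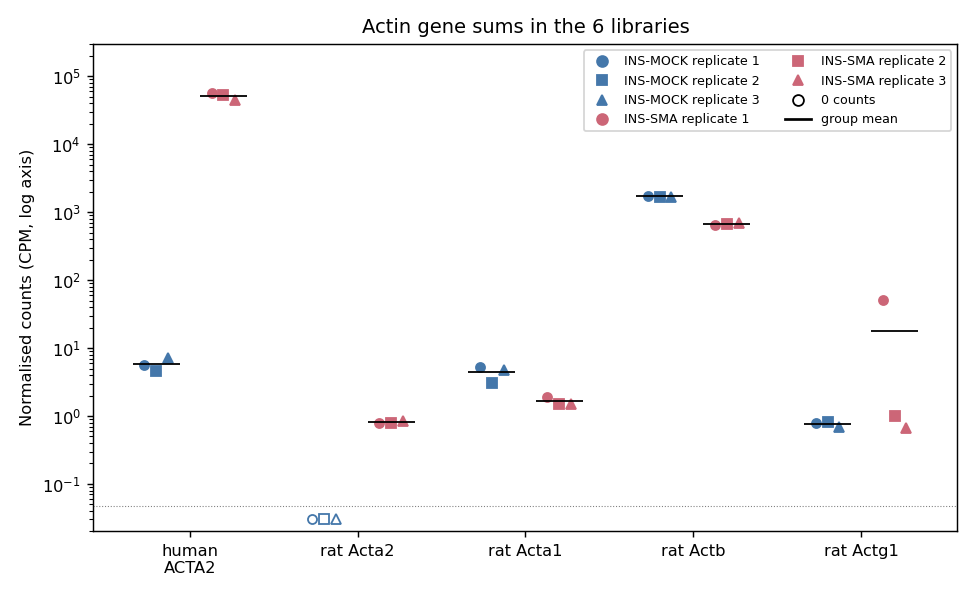
Normalised counts (CPM, log axis) of the human ACTA2 sequence and the 4 rat actin genes that had rows, 1 point per library and a bar at the group mean. Open symbols below the dotted line are libraries with 0 counts, for which no mean is drawn. ACTA2 is high in all 3 INS-SMA libraries, Actb and Acta1 are lower there without overlap, and Actg1 is high in INS-SMA replicate 1 alone.

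All actin rows together, human and rat, held 0.166% ± 0.00169 of the counts in named rows in INS-MOCK (SD, n = 3) and 5.34% ± 0.694 in INS-SMA (n = 3). The ratio of these means was 32.1. No test was made of this sum, since it is a total over genes chosen with results known. The sum of the rat genes went the other way, from 0.166% ± 0.00167 to 0.0707% ± 0.0026. Nearly all of that sum was Actb, which alone held 0.165% in INS-MOCK and 0.0685% in INS-SMA. The sum has no row of Actc1 or Actg2 and leaves out rows without a gene entry, so it may miss rat actin counts. There were 88.2, 79.1 and 64.0 counts of human ACTA2 per count of Actb in INS-SMA replicates 1 to 3.

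Of the 5 actin genes tested, ACTA2 and rat Acta2 rose, Actb and Acta1 fell, and Actg1 did not pass the threshold, an adjusted p of 0.05 by edgeR. Among all 13363 tested genes 55.1% passed, 28.1% higher and 27.0% lower in INS-SMA, and the calls among the actin genes are read against that background. ACTA2 was delivered to the INS-SMA cells, and Acta2 passed the count filter only through its INS-SMA libraries. Neither call adds to that count. The groups did not overlap for the 4 genes that passed, as for 65.3% of all tested genes, with the same limit for ACTA2 and Acta2. The labels do not say from which cultures the replicates came, so p-values measure the spread between these samples. In bulk RNA, fewer cells of a type and less RNA per cell cannot be told apart.

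Actb, the main cytoplasmic actin of most cells and a common reference gene, fell to 0.389 of its INS-MOCK level. It was at 1731, 1703 and 1689 CPM in INS-MOCK replicates 1 to 3 and at 641, 662 and 692 CPM in INS-SMA replicates 1 to 3. Each group was tight, and the highest INS-SMA library was well below the lowest INS-MOCK library. The means were 1708 ± 21.2 and 665 ± 25.7 CPM (SD, n = 3 each), and the log2 fold change was -1.36 (SE 0.04; adjusted p = 7.16e-06, edgeR). The gene lies on chromosome 12 from 13715843 to 13718841 on the plus strand, in the table's coordinates. With ACTA2 left out of the library sizes the log2 fold change of Actb was also -1.36. Among 2438 tested genes with a mean of at least 100 CPM, 206 had a lower log2 fold change than Actb.

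Actb was counted in 2 transcript rows. Row ENSRNOT00000042459 held 40277, 36544 and 38069 counts in INS-MOCK and 9943, 13933 and 17110 in INS-SMA. Its log2 fold change was -1.40 (SE 0.05; adjusted p = 1.10e-04, edgeR over all transcript rows, of which 30.1% passed). Row ENSRNOT00000080216 held 1637, 1458 and 1457 counts in INS-MOCK and 724, 500 and 687 in INS-SMA. Both rows were lower in every INS-SMA library. The log2 fold change of the minor row was -1.09 (SE 0.26; adjusted p = 0.0291, edgeR). That call was lost without any 1 library other than INS-SMA replicate 1, with adjusted p of 0.0656 to 0.0944. Without INS-SMA replicate 1 the adjusted p was 0.00476.

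The split of Actb between these rows was steady in 5 libraries. The minor row took 3.91%, 3.84% and 3.69% of Actb counts in INS-MOCK replicates 1 to 3, and 3.46% and 3.86% in INS-SMA replicates 2 and 3. In INS-SMA replicate 1 it took 6.79% (95% exact binomial interval 6.32% to 7.28%, counting error only). The interval of the next highest library, INS-MOCK replicate 1, was 3.72% to 4.10%. INS-SMA replicate 1 thus stood apart in this split, while INS-SMA replicate 2 was below and INS-SMA replicate 3 within the INS-MOCK range.

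Acta1, the actin of skeletal muscle, had few counts and fell. It was at 5.33, 3.05 and 4.83 CPM in INS-MOCK and at 1.92, 1.51 and 1.52 CPM in INS-SMA, in replicate order. The groups did not overlap, and the log2 fold change was -1.41 (SE 0.29; adjusted p = 0.00832, edgeR). The gene lies on chromosome 19 from 56674074 to 56677084, minus strand. The sum rested on 129, 68 and 113 counts in INS-MOCK and 32, 33 and 39 in INS-SMA.

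The 3 rows of Acta1 did not move alike. Row ENSRNOG00000017786.2 held most INS-MOCK counts, with 116, 62 and 109, and had 27, 24 and 7 in INS-SMA. As a row it had a log2 fold change of -2.06 and missed the threshold (SE 0.70; adjusted p = 0.0863, edgeR). Row ENSRNOG00000017786.3 had 28 counts in INS-SMA replicate 3 and 0 in all other libraries. Those 28 counts were 71.8% of Acta1 in that library (95% exact binomial interval 55.1% to 85.0%). Row ENSRNOT00000024084 held 13, 6 and 4 counts in INS-MOCK and 5, 9 and 4 in INS-SMA, which overlap. The last pair of rows was below the count filter.

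Rat Acta2, the cell's own gene for the actin that the virus carried, had 0 counts in all 3 INS-MOCK libraries and 13, 17 and 22 in INS-SMA. These are 0.781, 0.780 and 0.856 CPM. Their mean was 6.25 times the mean INS-MOCK floor of 3 counts per library, which is taken as a lower bound on the fold change. The test gave an adjusted p of 0.00139 (edgeR). The gene was tested only because it had counts in INS-SMA, so this p does not stand apart from the choice of genes to test. It also passed with no low-count filter, and under the strict filter of 1 CPM in 3 libraries the gene was not tested. The 3 INS-SMA libraries lay close together, at 0.806 ± 0.0433 CPM (SD, n = 3). The gene had 1 row. Its counts equalled 0.00138%, 0.00149% and 0.00193% of those of human ACTA2 in the same library. Whether some of these reads came from the human sequence was not tested.

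Actg1, the other cytoplasmic actin, did not pass the test. Its 1 row held 19, 18 and 16 counts in INS-MOCK and 863, 22 and 17 in INS-SMA. These correspond to 0.785, 0.807 and 0.684 CPM, and to 51.9, 1.01 and 0.661 CPM. INS-SMA replicate 1 alone was high, and the remaining INS-SMA libraries spanned the INS-MOCK range. The log2 fold change was 4.54 (SE 1.87; adjusted p = 0.0893, edgeR), and 0.14 without INS-SMA replicate 1 (adjusted p = 0.768). It is on chromosome 10 from 109519134 to 109520846, minus strand. Such rows occur elsewhere in the table. In 182 named rows 1 library held at least 500 counts and at least 20 times the next highest, and INS-SMA replicate 1 was that library in 20 of them. Rows without a gene entry held 32.7% to 36.7% of a library's counts, so a low value of a named actin gene is no proof of low expression.

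**Figure D2:**
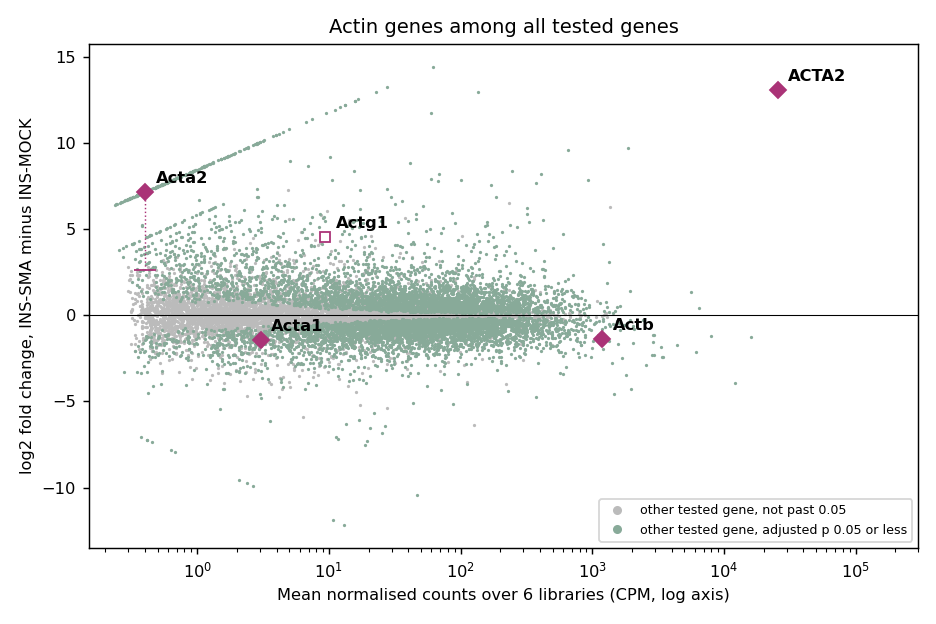
Fitted log2 fold change (INS-SMA minus INS-MOCK) against mean normalised counts over 6 libraries (CPM, log axis) for all tested genes, with the 5 actin genes labelled. Filled diamonds passed an adjusted p of 0.05 and the open square (Actg1) did not. The dotted line of Acta2 runs to 2.64, its lower bound, because its fitted value depends on the prior count. ACTA2 lies at 13.11, and Actb and Acta1 lie near each other at -1.36 and -1.41.

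The tested genes whose profile was nearest to each actin were found by the root mean square (RMS) difference between log2 CPM profiles centred on their means, over 6 libraries. For Actb they were Rpn1 (RMS 0.016), which encodes a subunit of the oligosaccharyltransferase, Siae (0.019), a sialic acid esterase, and Cdh1 (0.024), which encodes E-cadherin. A further count shows how common that profile was, since 199 genes lay within 0.1 of Actb. For Acta1 they were Tvp23a (0.12), AABR07034445.1 (0.13) and Pimreg (0.15). For rat Acta2, whose profile is flattened by the prior count of 2, they were Smad7 (0.066), an inhibitor of TGF-beta signalling, Relt (0.072), a receptor of the TNF receptor family, and Fhl2 (0.098), a LIM domain protein.

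ACTA2 had no near neighbour. The closest were Gbp5 (RMS 1.01), an interferon-induced GTPase gene, RGD1305938 (1.35) and Ifit3 (1.62), another interferon-induced gene. For Actg1 the nearest were Zmpste24 (0.47), Kcnh6 (0.52) and RGD1309104 (0.78). Zmpste24, a protease gene, was at 11.96 ± 19.3 CPM in INS-SMA, an SD above its mean as for Actg1 (17.8 ± 29.5 CPM).

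The 4 nearest tested genes around rat Acta2, looked at after the values were known, went in both directions. Over all tested genes 55.1% passed, and the groups did not overlap in 65.3%. Of the nearest one on each side, Fas rose and Stambpl1 had higher values without passing the test. Fas, the death receptor gene, begins 39390 bases past the higher coordinate of Acta2 (chromosome 1, 252537615 to 252550394, minus strand) and lies on the plus strand. It was at 5.08, 4.71 and 4.23 CPM in INS-MOCK and at 84.4, 87.4 and 79.3 CPM in INS-SMA, a log2 fold change of 4.16 (adjusted p = 5.04e-06, edgeR). Stambpl1, a deubiquitinase gene on the plus strand, ends 1510 bases before its lower coordinate. It was at 0, 0.134 and 2.14 CPM in INS-MOCK and at 15.5, 7.57 and 32.0 CPM in INS-SMA. Its groups did not overlap, but it did not pass (log2 fold change 4.59, adjusted p = 0.0572, edgeR). It passed without INS-MOCK replicate 3 (8.01, adjusted p = 0.00942, edgeR) and with DESeq2 (0.0211). Stambpl1 had 0, 3 and 50 counts in INS-MOCK and passed the count filter only with its INS-SMA libraries, so neither pass counts as support. Farther out, Lipf, a gastric lipase gene, had 0 counts in all INS-MOCK libraries and 28, 11 and 11 in INS-SMA (adjusted p = 0.0172, edgeR), and like Acta2 it was tested only because of its INS-SMA counts. Lipa, the lysosomal acid lipase gene, fell by 0.72 on the log2 scale (adjusted p = 0.00635, edgeR). That call was lost in its most abundant row (-0.18, adjusted p = 0.851). Beside the other actin genes the nearest tested genes moved in both directions or did not pass. Nearest to Acta1 was Nup133, 4894 bases away, which did not pass (log2 fold change 0.02). Ccsap, 40440 bases away on the other side of Acta1, fell by 1.38 on the log2 scale. Nearest to Actb was Fbxl18, 15587 bases away, which did not pass (-1.30). Rnf216, 83538 bases away on the other side of Actb, rose by 0.42. Faap100, 18701 bases away, was nearest to Actg1 and rose by 1.02. Bahcc1, 39242 bases away on the other side of Actg1, did not pass (0.86).

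**Figure D3:**
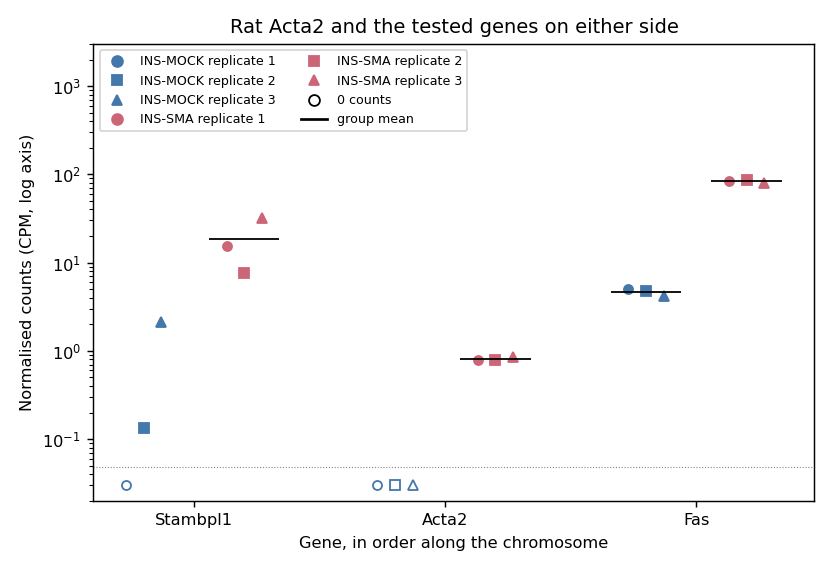
Normalised counts (CPM, log axis) of rat Acta2 and of the nearest tested gene on each side, 1 point per library with a bar at the mean where no library is at 0. Open symbols below the dotted line had 0 counts. For each of the 3 genes every INS-SMA library is above every INS-MOCK library, and Acta2 stays below 1 CPM. The groups did not overlap for 65.3% of all tested genes. Acta2 and Stambpl1 passed the count filter only with their INS-SMA libraries.

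Genes that bind actin monomers or turn filaments over were lower as a group. Of 16 listed genes 14 were tested, and 14 fell and 0 rose, with groups that did not overlap in all 14. Over all tested genes 27.0% fell, and the groups did not overlap in 65.3%. The median log2 fold change of the list was -0.89, against 0.03 over all tested genes. Tmsb4x, which encodes the monomer-sequestering peptide thymosin beta 4, was at 89.1, 95.6 and 92.0 CPM in INS-MOCK and at 17.1, 21.5 and 17.0 CPM in INS-SMA. The log2 fold change was -2.32 (SE 0.11; adjusted p = 3.23e-05, edgeR). Tmsb10, its relative, fell by 1.85 and the filament-severing gelsolin gene Gsn by 1.89 on the log2 scale.

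The cofilin gene Cfl1, whose product severs filaments, went from 611.6 ± 39.0 to 270.1 ± 13.5 CPM (n = 3 each), with a log2 fold change of -1.18. Its relatives Dstn (-0.89) and Cfl2 (-0.47) fell as well. The adenylyl cyclase-associated protein gene Cap1 (-0.89), Twf1 (-0.61), Wdr1 (-0.58) and the capping protein genes Capza1 (-0.50), Capzb (-0.46) and Capza2 (-0.35) fell too. Pfn1, the profilin gene, fell by 1.05 (adjusted p = 0.0184, edgeR). Its adjusted p rose to 0.0649 without INS-SMA replicate 1 and to 0.0616 without INS-SMA replicate 2. Twf2 was near 1 CPM. Its log2 fold change was -1.28 (adjusted p = 0.0259, edgeR). The adjusted p rose to between 0.0664 and 0.0822 without INS-MOCK replicate 1, INS-MOCK replicate 2, INS-SMA replicate 1 or INS-SMA replicate 2, and to 0.0665 with DESeq2. Several of these genes have processed copies in the genome, and how the authors' counting treated such reads is not known here.

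Genes that fold and finish new actin mostly fell. Actin needs the ring-shaped chaperonin CCT and its partner prefoldin to fold. Of 17 tested genes 11 fell and 2 rose (background 27.0% lower and 28.1% higher), with a median log2 fold change of -0.73. Among CCT subunits Tcp1 (-0.87), Cct6a (-0.74), Cct7 (-0.73) and Cct3 (-0.44) fell, whereas Cct4 rose by 0.32 (adjusted p = 0.00156, edgeR). Cct4 was at 607.2 ± 18.9 CPM in INS-MOCK and 757.0 ± 30.2 CPM in INS-SMA. Cct5 fell by 2.13 (adjusted p = 0.0149, edgeR), a call that was lost without INS-SMA replicate 1 (0.0526) or INS-SMA replicate 3 (0.0542). Cct8 had a log2 fold change of -0.52 and missed the threshold (adjusted p = 0.291, edgeR), and passed without INS-MOCK replicate 2 (-0.86, adjusted p = 2.81e-04).

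The prefoldin genes Pfdn2 (-1.23), Pfdn6 (-1.03), Vbp1 (-1.02), Pfdn5 (-0.94) and Pfdn4 (-0.52) fell, as did Pdcl3 (-0.65), a phosducin-like partner of CCT. The other gene that rose was Nat6, the table's symbol for Naa80, which acetylates the amino terminus of mature actin. It was at 8.55, 7.71 and 8.63 CPM in INS-MOCK and at 19.9, 16.4 and 16.9 CPM in INS-SMA. Its log2 fold change was 1.09 (SE 0.13; adjusted p = 9.84e-04, edgeR).

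Actin-related proteins share the actin fold but serve in filament branching, dynein transport and chromatin remodelling. Of 14 tested genes 7 fell and 3 rose (background 27.0% lower and 28.1% higher). The median log2 fold change was 0.02, against 0.03 over all tested genes. The ARP2/3 subunit genes Actr2 (-0.98) and Actr3 (-0.30) fell. So did the dynactin genes Actr10 (-0.58), Actr1b (-0.27) and Actr1a (-0.25), and Actl6b (-0.63) and Actl6a (-0.22) of chromatin remodelling complexes. Actrt3, a gene known from testis, rose from 0.439 ± 0.193 to 9.08 ± 1.20 CPM (log2 fold change 4.35; adjusted p = 3.83e-04, edgeR). Actrt3 had 12, 5 and 14 counts in INS-MOCK and passed the count filter only with its INS-SMA libraries. Its call thus adds nothing to the count of genes that rose. Actl6b was at 0.14 in its most abundant row. Actl6a missed the threshold in its most abundant row (adjusted p = 0.199, edgeR) and with no normalization factors (0.0562). Actr5 (0.66, and -0.040 in its most abundant row) rose, and so did Actr6 (0.27; adjusted p = 0.0320, edgeR). The call of Actr6 was lost without INS-MOCK replicate 2 or 3 or INS-SMA replicate 2 or 3 (adjusted p from 0.0741 to 0.0962), with no low-count filter (0.0629) and in its most abundant row (0.564).

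SRF, its cofactors and its known target genes moved both ways. Of 15 tested genes 6 rose and 3 fell (background 28.1% and 27.0%), with a median log2 fold change of -0.07. Srf itself was at 106.8 ± 19.1 CPM in INS-MOCK and 102.0 ± 27.5 CPM in INS-SMA. Its log2 fold change was -0.07 (adjusted p = 0.837, edgeR), with a sign that turned in some settings. Mkl1, which encodes MRTF-A, rose from 48.5 ± 4.33 to 110.7 ± 7.24 CPM. The log2 fold change was 1.19 (SE 0.09; adjusted p = 1.36e-04, edgeR).

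The target genes that rose included the immediate early genes Egr1 (2.78) and Junb (2.66), Fhl2 (3.31), the focal adhesion gene Zyx (1.94) and Filip1l (2.15). Filip1l had 6, 6 and 14 counts in INS-MOCK and passed the count filter only with its INS-SMA libraries. Its call thus adds nothing to the count of genes that rose. Fhl2 was at 1.57, 1.61 and 1.32 CPM in INS-MOCK and at 13.9, 14.9 and 16.2 CPM in INS-SMA, without overlap. Tagln2 (-1.54), a transgelin gene, the tropomyosin gene Tpm1 (-0.91) and the actin crosslinker gene Actn1 (-0.89) fell. In their most abundant rows Zyx (0.95, adjusted p = 0.0952) and Actn1 (-0.63, adjusted p = 0.211) missed the threshold. The vinculin gene Vcl had a log2 fold change of -0.66 and did not pass (adjusted p = 0.125, edgeR), and passed without INS-SMA replicate 1 (0.00391) and with DESeq2 (0.0281). Fhl1 (-3.72; adjusted p = 0.0906, edgeR) did not pass. It passed without INS-SMA replicate 2 (log2 fold change -9.80, adjusted p = 7.42e-04), in its most abundant row (-8.42, 0.00146) and with DESeq2 (0.0193). Fos (0.55; adjusted p = 0.0505, edgeR) did not pass, and was at 0.0288 to 0.0492 with no normalization factors, unnamed rows in the library sizes, the strict filter or its most abundant row. Tagln, a smooth muscle gene often measured with Acta2, was at 1.96 ± 0.144 CPM in INS-MOCK and 1.63 ± 0.499 CPM in INS-SMA and did not pass (adjusted p = 0.492, edgeR).

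**Figure D4:**
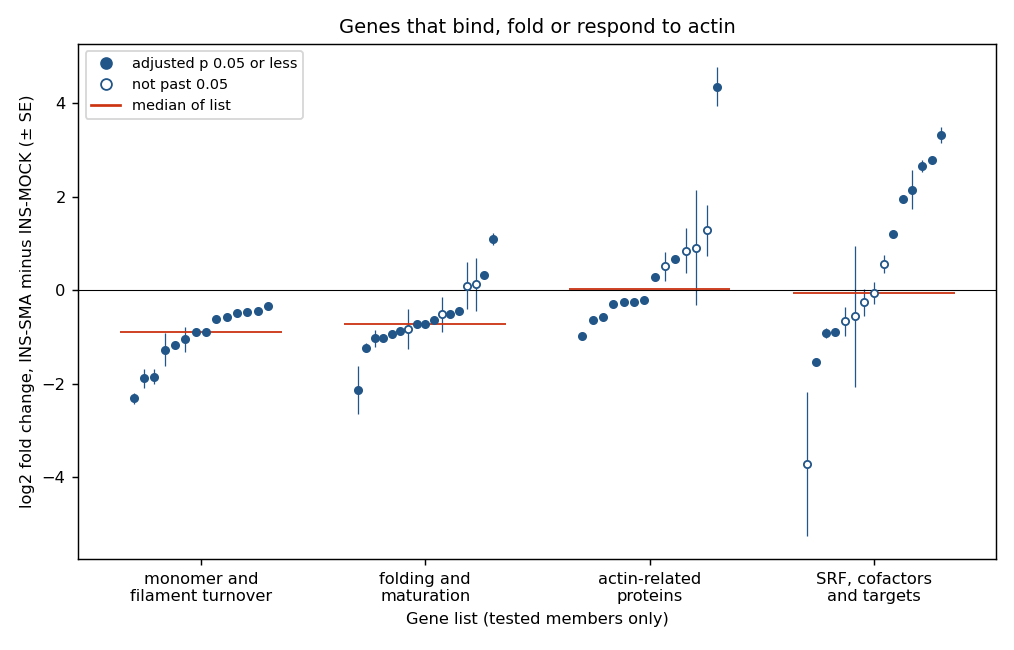
Fitted log2 fold change (INS-SMA minus INS-MOCK) with its SE for each tested member of the 4 gene lists, in order within a list, with a line at the list's median. Filled points passed an adjusted p of 0.05. The 14 monomer and filament genes are all below 0 (median -0.89) and the folding genes mostly so (-0.73), while the actin-related (0.02) and SRF (-0.07) lists spread over both sides.

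Markers of the labelled cell and of cells that normally hold muscle actins were read for the same libraries. The background for each count of these markers is the 27.0% of all tested genes that fell and the 28.1% that rose. All 13 INS-1 beta cell markers were tested, 9 fell and 0 rose, and their summed level was 38562 to 41535 CPM in INS-MOCK and 3949 to 5128 CPM in INS-SMA. Ins1 alone was at 22960 ± 895 CPM in INS-MOCK and 1505 ± 182 CPM in INS-SMA. Nkx2-2, Mafa and Slc2a2 had lower means in INS-SMA and Iapp a higher one (0.984 ± 0.214 to 4.87 ± 5.96 CPM), and none of these passed. Of 10 smooth muscle markers 9 had a row and 5 were tested, with 1 higher (Myh11; adjusted p = 0.0379, edgeR) and 1 lower (Synpo2). Myh11 lost its call without any 1 library other than INS-MOCK replicate 2 (adjusted p from 0.0656 to 0.108) and with no low-count filter (0.0588). Their summed level was 399.6 to 415.4 CPM in INS-MOCK and 58.4 to 92.1 CPM in INS-SMA, of which Synpo2 made up 387.5 ± 5.47 and 52.2 ± 11.4 CPM. Cnn1 (0.0299 and 0 CPM), Myocd (0.0275 and 0.0824 CPM), Des (0.0978 and 0.147 CPM) and Lmod1 (0.226 and 0.350 CPM) were below the count filter. Smtn was at 16.8 ± 5.66 CPM in INS-MOCK and 22.4 ± 9.59 CPM in INS-SMA. Smtn, Tagln (1.96 and 1.63 CPM) and Itga8 (0.387 and 0.818 CPM) were tested and did not pass.

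Of 10 fibroblast and stellate cell markers 8 had a row and 4 were tested. Col3a1 rose, from 0.0698 ± 0.0634 to 2.84 ± 0.788 CPM, and 3 fell. Those that fell had higher levels, Thy1 (54.8 ± 15.7 to 11.7 ± 8.54 CPM), Postn (15.6 ± 0.468 to 4.98 ± 0.773 CPM) and Pdgfra (15.3 ± 1.77 to 8.24 ± 0.165 CPM). Col3a1 passed the count filter only through its INS-SMA libraries, so its call adds nothing to the count. The summed level of the markers was 76.1 to 101.6 CPM in INS-MOCK and 24.6 to 37.5 CPM in INS-SMA. Col1a2, Dcn and Lum, all below the count filter, were at 0 in INS-MOCK and at 0.0706, 0.274 and 0.409 CPM in INS-SMA. Of 13 striated muscle markers 7 had a row, 2 were tested and 0 passed edgeR's test, and their sum was 0.826 to 1.24 CPM in INS-MOCK and 2.43 to 2.99 CPM in INS-SMA. The part of the fall in beta cell markers, or of these low levels, in the actin values was not tested.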

How the data were processed

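Total RNA of INS-1 cells was sequenced in 6 libraries. The authors deposited raw counts, whole numbers per transcript row and library, with 101905 rows. The submitters' processing notes name HISAT, HISAT2 and DESeq2, and hg19 and rn6 as builds, without roles. The sources used here do not state the counting program, strand setting or annotation. Rows without a gene entry (66301 rows) entered no library size or test. Counts were summed per gene entry. edgeR 4.0.16 (filterByExpr, TMM factors, quasi-likelihood F-test, group as the only term, R 4.3.3) was run on 13363 genes and, separately, on 23402 transcript rows, with Benjamini-Hochberg adjustment over all of them and a threshold of 0.05. The SE is the log2 fold change divided by the square root of F. Library sizes of the tested genes were 15851326 to 25075476 counts before TMM scaling. CPM use the TMM-scaled sizes, where 3 counts are 0.117 to 0.180 CPM. The test was checked on simulated counts. No 2 libraries of a group agreed within sampling noise (chi-square over its degrees of freedom 45.0 to 58.6).

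Named genes were the actin genes with every row, members of the 4 gene lists, and for each actin the 3 genes of at least 5 mean CPM with the nearest profile. Chromosome neighbours and single-library rows were added after seeing values. Members and lists were chosen with earlier results of these data known. Lists are described by counts and medians, with no set test. Older symbols were matched through RefSeq's gene table. Alternatives were DESeq2 1.42.0, other scaling, count filters, the most abundant row of a gene, a replicate block, and leaving out each library.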

Additional observations from a re-analysis of the deposited data

How the results depend on the processing

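ACTA2, Actb and Acta1 kept their direction under every alternative run, and ACTA2 and Actb kept their calls. Acta1 lost its call in its most abundant row (log2 fold change -1.98, adjusted p = 0.0646). Without each library in turn the log2 fold changes ranged from 12.97 to 13.29 for ACTA2, -1.39 to -1.33 for Actb, -1.62 to -1.25 for Acta1 and 0.14 to 5.11 for Actg1, and that of the minor Actb row from -1.41 to -0.92. DESeq2 gave no p for Actg1, and Acta2 and Actg1 were not tested under the strict filter of 1 CPM in 3 libraries. Correlations of same-numbered libraries' deviations were -0.03 to -0.01. They gave no sign of pairing, but with 3 libraries a group they cannot show that the libraries were unpaired. With the replicate block, 6294 genes passed in place of 7359, Acta2 was at 7.18 (adjusted p = 0.0697; as a row 7.17, 0.146), and the minor Actb row at -1.15 (0.0664). The block also ended the calls of Twf2 (adjusted p = 0.101), Cct5 (0.0530), Actr6 (0.103), Myh11 (0.0674) and Lipf (0.0706), and Stambpl1 passed with it (0.0422). No INS-MOCK library correlated best with its own number. With unnamed rows in the total, the shares were 3.76e-04% and 3.36% for ACTA2 in INS-MOCK and INS-SMA, 0.111% and 0.0437% for Actb, and 0.112% and 3.41% for all actin rows, by construction lower. In its most abundant row Actr5 was at -0.040 and Actl6b at 0.14. Srf was at 0.026 with no normalization factors and from -0.20 to 0.14 without each library. Among genes that did not pass, Flna was at 0.37 with the replicate block and passed without INS-MOCK replicate 3 (-1.15, adjusted p = 0.00604), and Nup133 was at -0.40 in its most abundant row. Without each library Cct2 was at -0.21 to 0.95, Pfdn1 at -0.23 to 0.45 and Nup133 at -0.036 to 0.077. The causes of these changes were not tested. Depth limits the values of Acta2, Acta1 and Actg1, which rest on at most 129 counts a library except Actg1 in INS-SMA replicate 1.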
